A study of Mus musculus with 346 samples.

Results

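Wnt and Fgf proteins are the short-range signals that pattern the gut tube, and the rows for these ligands and their receptors were drawn from single cells of mouse foregut, pancreatic buds and liver. Every row named as a Wnt ligand (Wnt with its number and an optional a or b), a Frizzled receptor (Fzd), an Fgf or an Fgf receptor (Fgfr1 to Fgfr4) was taken, which gave 38 of 20474 rows. They comprise 13 Wnt ligands, 10 Frizzled receptors, 6 secreted Fgfs, the endocrine Fgf15, 4 Fgf homologous factors and 4 Fgf receptors. All 346 cells carried green fluorescent protein from a Prox1-EGFP transgene (genotype Prox1-GFP, Tg(Prox1-EGFP) mice), so each class, the liver and pancreas included, is a sort on activity of a transgene for Prox1, a homeobox factor of early liver and pancreas. The series' design text counts 452 processed cells, of which the 346 in the table are analysed here. They were read with Smart-seq2, which amplifies full-length transcripts 1 cell at a time. The classes are 82 foregut cells at embryonic day (E) 8.5 (plate 1A), 86 dorsal bud cells at E10.5 (plates 2A and 2B), 27 ventral bud cells at E10.5 (plate 3), 78 liver bud cells at E10.5 (plate 5A) and 73 pancreas cells at E14.5 (plate 4A). The dorsal plates were split at an Epcam level of 5, the liver plate at an Afp level of 10 and the E14.5 plate at a Col1a1 level of 5, all on the deposited log2 scale. This gave 13 Epcam-negative cells on plate 2B and 7 on plate 2A, against 25 Epcam-positive cells on plate 2B and 41 on plate 2A. It also gave 32 Afp-low against 46 Afp-high liver cells, and 58 Col1a1-positive against 15 Col1a1-negative cells at E14.5.

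Wnt proteins are lipid-bearing secreted ligands that bind Frizzled receptors, together with a co-receptor such as Lrp5 or Lrp6. Depending on ligand and receptor, this stabilises β-catenin or acts on cell polarity and movement. Secreted Fgfs bind receptor tyrosine kinases, the Fgf receptors, with heparan sulphate or a Klotho protein as a partner, and act largely through the MAP kinase pathway, whose feedback genes include the Sprouty, Dusp and Etv genes. In the early gut, Fgf10 made by mesenchyme around the pancreatic bud and acting on Fgfr2 of the epithelium is a textbook example of a signal between the tissues.

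A level here is log2(normalized reads + 1), detection in a cell means at least 5 normalized reads of the gene, and SDs are the spread between cells. The labels name no animal or culture, so each plate is 1 sample: differences between classes carry no p-value, and cells are not replicates of a condition. Exact (Clopper-Pearson) 95% intervals on shares cover counting error only, and 0 detected cells of n allows a share of up to 3/n. The splits left clear gaps. The highest Epcam level below the split was 2.15 on plate 2A and 1.98 on plate 2B, and the lowest above it was 5.97 and 5.48. Afp left a gap between 6.57 and 11.6, and Col1a1 between 0 and 8.47. Median reads per cell ran from 760738 to 2657340 over the 10 classes, and median genes from 2303 in Afp-low liver cells to 5793.5 in the foregut, so classes differ in how many genes a cell shows. Reads and genes did not go together: liver cells had the most reads and few genes. The labels did not match every cell. Of 82 foregut cells, labelled endoderm, 59 carried at least 3 of 7 neural tube markers (including Rfx4, Sox2 and Crabp1), 11 at least 3 of 7 heart muscle markers and 12 at least 3 of 8 epithelial markers. At E14.5, labelled pancreatic epithelium, all 58 Col1a1-positive cells carried at least 3 of 10 mesenchyme markers, none of the 8 epithelial markers was detected in any of them, and Prox1 was detected in 10 of 58, against 14 of 15 Col1a1-negative cells. Of 15 Col1a1-negative cells, 13 carried at least 3 epithelial and 11 at least 3 endocrine markers. Of the Epcam-negative dorsal cells, 7 of 13 on plate 2B and 6 of 7 on plate 2A carried at least 3 mesenchyme markers, and on each plate 5 of these 10 genes were detected in no cell. Of the Epcam-negative cells, 1 of 13 and 2 of 7 carried at least 3 epithelial markers. Among Afp-low liver cells, 15 of 32 carried at least 3 mesenchyme markers, 12 of 32 at least 3 heart muscle markers and 0 of 32 at least 3 epithelial markers. Of 27 ventral bud cells, 21 carried at least 3 of 10 hepatoblast markers, 21 at least 3 of 10 pancreatic progenitor markers and 15 both. No class had a cell with 3 blood markers.

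Over the dorsal bud, 3 of the 24 genes detected in at least 10 cells differed by at least 1 between Epcam-negative and Epcam-positive cells in the same direction on both plates: the ligand genes Fgf9 and Fgf10 and the receptor gene Fgfr4. By the same rule 9.1% of all 13235 genes were higher and 5.18% lower. Their promoters are shown because these are the genes that passed on both plates. Each runs 5′ to 3′ on the gene's strand, from 250 bases before to 50 bases after the RefSeq start site on GRCm38.p6: Fgf9 at chr14:58072436-58072735, Fgf10 at chr13:118714449-118714748 and Fgfr4 at chr13:55152568-55152867, each on the plus strand. In GENCODE M21, Fgf9 and Fgf10 begin upstream of these windows, at 58070547 and 118669791. The windows therefore describe 1 annotated start site per gene, and other starts were not searched. Capitals mark matches to 2 of the motifs searched on both strands: a GATA motif in Fgf9, on the other strand, and the GC box in Fgf10, on the other strand, and in Fgfr4, as printed.
Fgf9: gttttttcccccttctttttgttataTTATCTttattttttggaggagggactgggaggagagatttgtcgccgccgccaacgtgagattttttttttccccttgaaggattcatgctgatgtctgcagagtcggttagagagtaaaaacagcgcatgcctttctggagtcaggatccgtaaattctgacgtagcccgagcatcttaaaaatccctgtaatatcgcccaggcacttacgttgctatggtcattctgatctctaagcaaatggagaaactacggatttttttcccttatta
Fgf10: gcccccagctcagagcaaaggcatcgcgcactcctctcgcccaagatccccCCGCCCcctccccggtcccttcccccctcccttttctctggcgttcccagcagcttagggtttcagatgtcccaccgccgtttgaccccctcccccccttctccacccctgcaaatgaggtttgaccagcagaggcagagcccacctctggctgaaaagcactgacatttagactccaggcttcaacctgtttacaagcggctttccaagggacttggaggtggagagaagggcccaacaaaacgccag
Fgfr4: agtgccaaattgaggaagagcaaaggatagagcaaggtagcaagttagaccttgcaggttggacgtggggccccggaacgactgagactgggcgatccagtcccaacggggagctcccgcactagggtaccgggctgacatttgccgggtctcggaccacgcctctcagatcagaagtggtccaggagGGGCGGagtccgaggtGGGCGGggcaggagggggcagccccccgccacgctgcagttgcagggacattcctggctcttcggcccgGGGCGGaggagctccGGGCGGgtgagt
The GATA motif searched was AGATAA, which had 1 match in the Fgf9 window and occurs in 11.2% of 32851 RefSeq promoters of the same length. The GC box was searched as GGGCGG, with 4 matches in the Fgfr4 window and 1 in the Fgf10 window, and it occurs in 35.7% of promoters. The TATA box, searched as TATAAA, occurs in 13.6% of promoters and in none of the 3 windows. The CCAAT box (37.4% of promoters), the E-box CAGGTG (20.2%) and the Tcf/Lef motif, given by the letters ATCAAAG (3.73%), had no match in these windows either. No match overlapped a match to another motif. GC content was 42.7% in the Fgf9 window, 60.7% in Fgf10 and 65.3% in Fgfr4, against a median of 52.7% over all promoters.

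In most classes more cells had a receptor than a ligand of the same pathway. At least 1 Frizzled gene was detected in 98.8% of foregut cells (95% interval from 93.4), 62.5% of Afp-low and 52.2% of Afp-high liver cells, 77.8% of ventral bud cells, 92.3% and 85.7% of Epcam-negative dorsal cells on plates 2B and 2A, and 88% and 90.2% of Epcam-positive ones. At E14.5 the share was 60.3% of Col1a1-positive and 26.7% of Col1a1-negative cells. At least 1 Fgf receptor was detected in 100% of foregut cells and in 40% to 92.3% of the other classes. A secreted Fgf, Fgf15 included, was detected in 11 of 13 Epcam-negative cells on plate 2B (84.6%, 54.6 to 98.1) and in 5 of 7 on plate 2A (71.4%, 29 to 96.3), against 5 of 25 (20%, 6.83 to 40.7) and 0 of 41 Epcam-positive cells (a limit of 7.32%). It was found in 38 of 82 foregut cells (46.3%), 6 of 32 Afp-low against 0 of 46 Afp-high liver cells, 0 of 27 ventral bud cells, and 4 of 58 Col1a1-positive against 2 of 15 Col1a1-negative cells at E14.5. A Wnt ligand was detected in 51 of 82 foregut cells (62.2%) and in 35 of 58 Col1a1-positive cells at E14.5 (60.3%, 46.6 to 73), against 1 of 15 Col1a1-negative cells (6.67%, 0.169 to 31.9). The share was 10 of 32 Afp-low against 0 of 46 Afp-high liver cells (a limit of 6.52%). A Wnt ligand was also found in 6 of 27 ventral bud cells (22.2%), and in 3 of 13 and 3 of 7 Epcam-negative (23.1% and 42.9%) against 11 of 25 and 9 of 41 Epcam-positive dorsal cells (44% and 22%) on plates 2B and 2A. Ligand and receptor shares were equal in Col1a1-positive cells for Wnt and Frizzled (35 of 58 each) and in Epcam-negative cells of plate 2A for secreted Fgf and Fgf receptor (5 of 7 each). After every cell was thinned to 500000 reads, a secreted Fgf remained in 11 of 13 and 5 of 7 Epcam-negative cells, and Afp-high liver cells stayed at 0 for both ligand families.

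**Figure D1:**
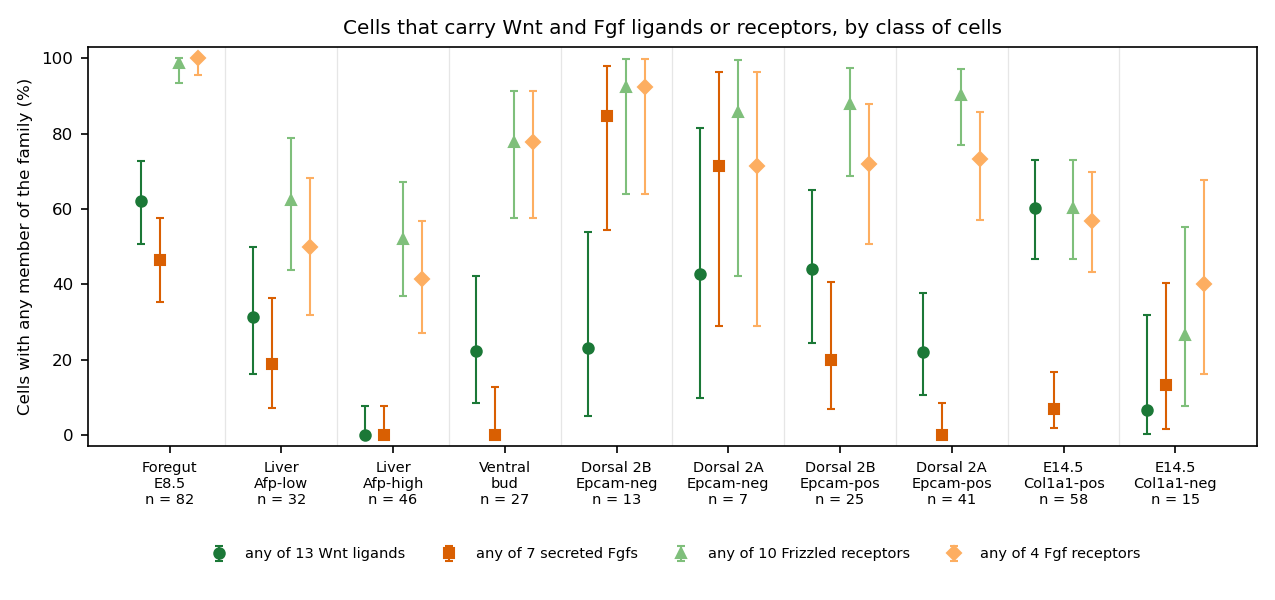
Share of cells in each class with at least 1 detected gene of a family (percent, vertical axis); points are shares, bars are exact 95% binomial intervals for counting error, and n is the number of cells. Secreted Fgfs stand highest in Epcam-negative dorsal cells (84.6% on plate 2B and 71.4% on plate 2A), and neither ligand family was detected in Afp-high liver cells.

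Among the Wnt ligands, Wnt5a, which signals mainly without β-catenin, was detected in the most cells. In the 58 Col1a1-positive cells at E14.5 its level ran from 0 through a median of 4.60 to 10.47, with 31 cells detected, and in the 15 Col1a1-negative cells the highest level was 1.21, under the detection limit. Foregut cells ranged from 0 to 8.86 with 29 of 82 detected and a median of 0. Every other class had at most 1 cell with Wnt5a, so Wnt5a was seen mainly in the foregut and the Col1a1-positive cells. The gene lies on chromosome 14 (28504750 to 28527448, GRCm38, GENCODE M21), and 358 of its exonic bases are shared with Gm2670 on the opposite strand. Whether the counting used strand is not given in the sources used here, so reads of overlapping genes cannot be told apart. Of the 29 foregut cells with Wnt5a, 24 were among the 59 cells with at least 3 neural tube markers and 5 among the other 23.

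Wnt2, a ligand of β-catenin signalling known from the heart and lung mesenchyme, was detected in 11 of 82 foregut cells at levels of 8.31 to 11.38 and in 5 of 32 Afp-low liver cells at 8.92 to 11.47, and in no cell of the other 8 classes. These were high levels in few cells. All 11 foregut cells with Wnt2 were the 11 cells with at least 3 heart muscle markers, and none of the other 71 foregut cells had it. All 5 liver cells with Wnt2 were likewise among the 12 Afp-low cells with at least 3 heart muscle markers. Wnt2 lies on chromosome 6 (17988940 to 18030585). Wnt5b, a relative of Wnt5a, was detected in 15 of 82 foregut cells, 2 of 13 Epcam-negative and 5 of 25 Epcam-positive cells on plate 2B, 2 of 7 Epcam-negative and 2 of 41 Epcam-positive cells on plate 2A, 2 ventral bud cells, and 1 cell each in Afp-low liver and Col1a1-positive E14.5 cells. Wnt11 was detected in 3 foregut, 2 Afp-low liver and 6 Col1a1-positive E14.5 cells. Wnt7b and Wnt16 were each detected in 3 of 27 ventral bud cells (11.1%), all 3 of them for each gene among the 21 ventral cells with at least 3 pancreatic progenitor markers. Since 21 of 27 ventral cells are in that subset, 3 of 3 says little about it. By hepatoblast markers, Wnt16 was detected in 0 of 21 cells with at least 3 against 3 of the other 6. Wnt7b was detected in 2 of these 21 against 1 of the other 6. The other 7 Wnt ligands (Wnt1, Wnt2b, Wnt3, Wnt3a, Wnt4, Wnt8a and Wnt9a) were each detected in 7 cells or fewer. Wnt1, Wnt3, Wnt3a and Wnt8a were detected in the foregut alone, in 3, 2, 4 and 2 cells. All cells with Wnt1 and Wnt3a carried at least 3 neural tube markers.

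Fgf9, a secreted ligand known to act on mesenchymal receptors in several organs, was carried by Epcam-negative dorsal cells. The 13 Epcam-negative cells of plate 2B ran from 0 through a median of 4.72 to 8.70 with 10 detected, and the 7 of plate 2A from 0 through 2.15 to 7.44 with 3 detected. The 25 Epcam-positive cells of plate 2B ran from 0 to 8.36 with 5 detected and a median of 0, and all 41 of plate 2A were at 0. The classes overlapped on plate 2B through the 5 Epcam-positive cells with Fgf9, and on plate 2A they met at 0, where 2 Epcam-negative cells also lay. Of these 5 cells, 4 also had Pdgfra and 4 had Barx1, both genes of gut mesenchyme, and 3 had the collagen gene Col3a1, against 0 of the other 20 Epcam-positive cells for each gene. Foxa2, an endoderm factor, was detected in 1 of the 5 against 17 of the 20. Pdgfra, Barx1, Col3a1 and Foxa2 were picked after their values were seen, and Barx1 is not on the list of 10 mesenchyme markers. On that list, 3 of the 25 Epcam-positive cells of plate 2B carried at least 3 markers, and 3 of the 10 genes were detected in no cell. Whether a well held more than 1 cell was not tested. Elsewhere Fgf9 was detected in 1 Afp-low liver cell and in 2 of 15 Col1a1-negative cells at E14.5. Fgf9 lies on chromosome 14 (58070547 to 58112720).

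Fgf10 was detected in 5 of 7 Epcam-negative cells of plate 2A (0, 7.09 and 9.06 as lowest, median and highest level) and in 5 of 13 on plate 2B (0, 0 and 9.65), against 0 of 41 and 1 of 25 Epcam-positive cells, the 1 cell at 6.17. On plate 2A all 5 were among the 6 Epcam-negative cells with at least 3 mesenchyme markers, while on plate 2B Fgf10 was detected in 2 of 7 such cells against 3 of the other 6. Fgf9 and Fgf10 were found together in 3 Epcam-negative cells of plate 2A and 4 of plate 2B, so that every Fgf9 cell of plate 2A also had Fgf10. In the liver, 5 of 32 Afp-low cells had Fgf10 at 9.54 to 11.01 and no Afp-high cell did. All 5 belonged to the 15 Afp-low cells with at least 3 mesenchyme markers. In the foregut, 2 cells had Fgf10, and it was detected in no ventral bud or E14.5 cell. Fgf10 lies on chromosome 13 (118669791 to 118792115), with 123 exonic bases shared with Gm16263 on the opposite strand.

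Fgf15, the mouse endocrine Fgf that later carries a signal from ileum to liver, was detected in 34 of 82 foregut cells (41.5%) at levels of 3.22 to 9.63 and in 1 other cell, a Col1a1-positive cell of E14.5. All 34 were among the 59 foregut cells with at least 3 neural tube markers, none among the other 23, and none among the 12 cells with at least 3 epithelial markers. Fgf15 (chromosome 7, 144896531 to 144900953) shares 761 exonic bases with Gm26793 on the opposite strand. Fgf3, a paracrine ligand of the hindbrain, was detected in 8 foregut cells at 3.07 to 7.25, all 8 with at least 3 neural tube markers. Fgf1, Fgf7 and Fgf22 were each detected in 2 cells. The 4 Fgf homologous factors, which stay inside the cell and act on sodium channels, were sparse. Fgf13 was detected in 20 foregut cells, 17 of them with at least 3 neural tube markers, and Fgf14 in 7 of 41 Epcam-positive cells of plate 2A. Fgf11 was detected in at most 4 cells and Fgf12 in at most 3 cells of any class.

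**Figure D2:**
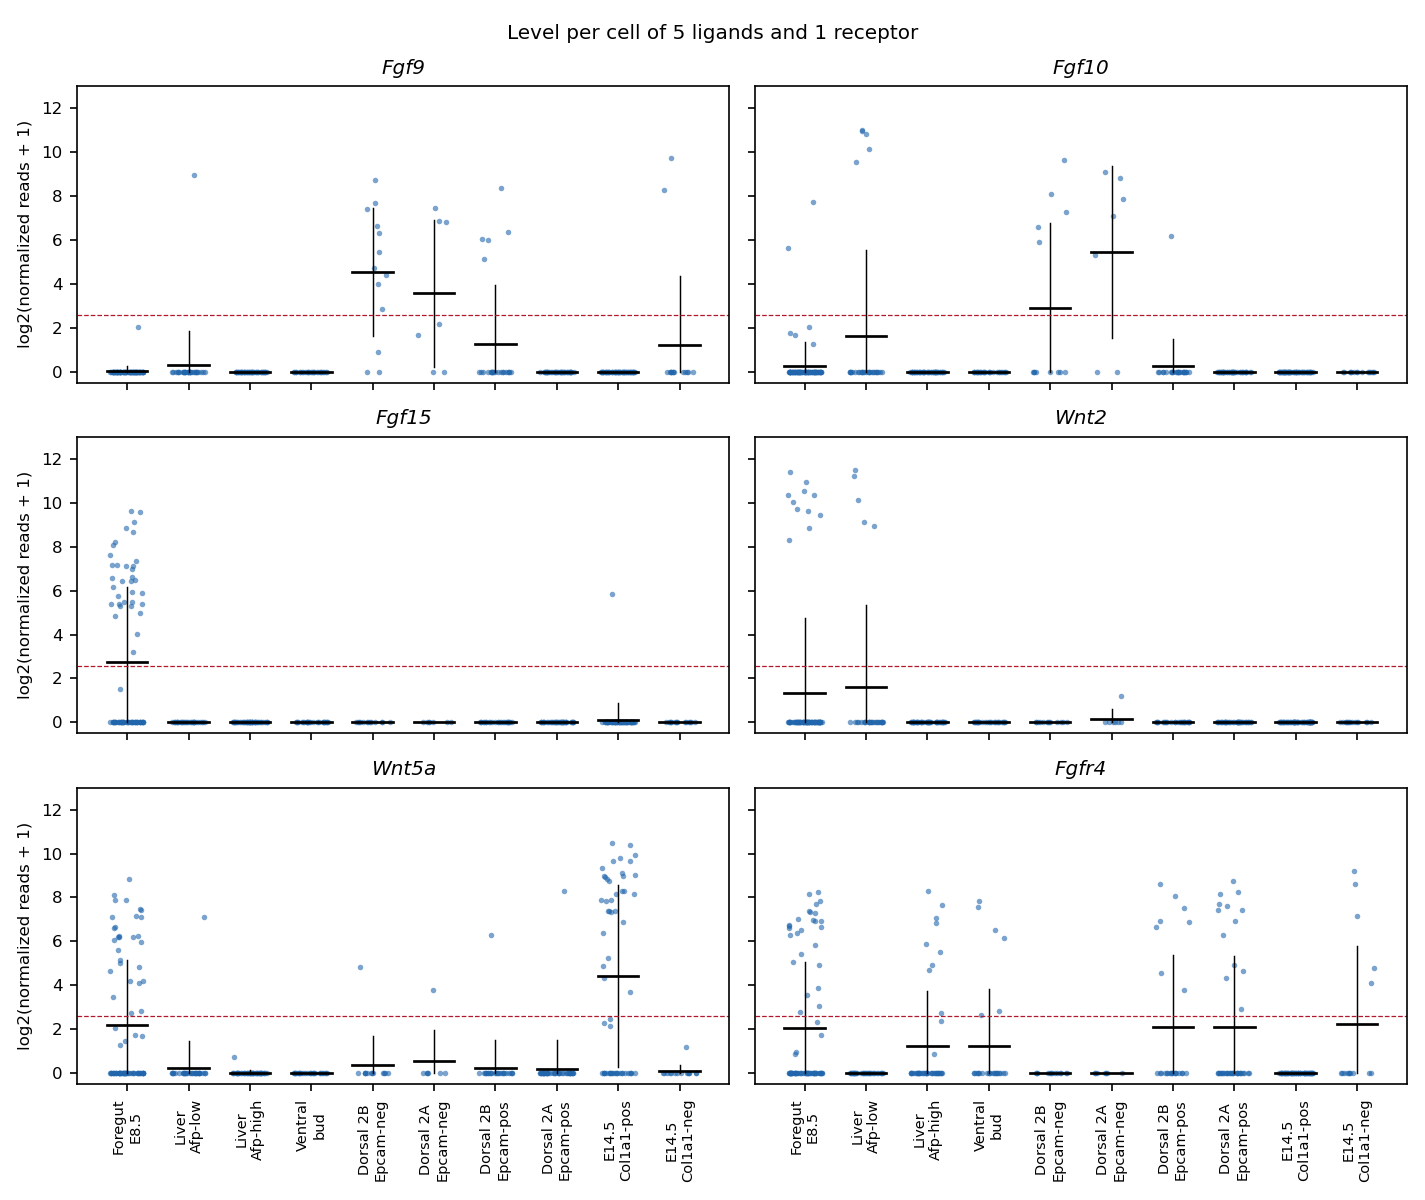
Level per cell, as log2(normalized reads + 1), of 5 ligand genes and the receptor gene Fgfr4 in the 10 classes; each point is a cell, the thick line is the mean, the thin line spans 1 SD either side (stopped at 0), and the dashed line is the detection limit of 5 normalized reads. Fgf9 and Fgf10 lie in Epcam-negative dorsal cells, Wnt2 in few cells at high level in foregut and Afp-low liver, Wnt5a in 31 of 58 Col1a1-positive cells at E14.5, and Fgfr4 in no Epcam-negative, Afp-low or Col1a1-positive cell.

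Of the 10 Frizzled genes, 7 were detected in 7 or more of the 10 classes, and Fzd8, Fzd10 and Fzd9 in 4, 3 and 2. In foregut cells Fzd3, a receptor of the planar polarity branch, was detected in 69 of 82 cells, Fzd7 in 64, Fzd2 in 62, Fzd9 in 30, Fzd4 in 28 and Fzd10 in 19. On the scale that allows genes to be compared, mean normalized reads per kilobase of exon, Fzd3 stood at 21.9, Fzd2 at 19.7, Fzd9 at 18.8, Fzd7 at 16.3, Fzd4 at 7.12 and Fzd10 at 3.65. With SDs between cells of 2.66 to 3.20 on the log2 scale, the order of the first 4 is not separated. All 30 foregut cells with Fzd9 and 17 of 19 with Fzd10 had at least 3 neural tube markers, and outside the foregut Fzd9 was detected in 1 cell and Fzd10 in 2. In Epcam-positive cells of plate 2A, Fzd3 was detected in 23 of 41 cells, Fzd1 in 21, Fzd2 and Fzd7 in 20 each, Fzd4 and Fzd5 in 14 each and Fzd6 in 10. Per kilobase, Fzd7 at 27.1 and Fzd1 at 25.2 stood above Fzd2 at 15.9, Fzd3 at 13.6, Fzd4 at 9.43, Fzd5 at 5.23 and Fzd6 at 4.81. Afp-low liver cells carried mainly Fzd1 (13 of 32 cells, 52.7 reads per kilobase). Afp-high liver cells carried mainly Fzd7 (13 of 46 cells), followed by Fzd5 in 6 and Fzd3 in 5. Col1a1-positive E14.5 cells carried Fzd2 in 24 of 58, Fzd1 in 13 and Fzd7 in 11, and Col1a1-negative cells carried Fzd3 in 3 of 15, Fzd4 in 2 and Fzd2 in 1. Fzd8 was detected in 5 cells in all. Fzd5 shares 1233 exonic bases with Gm38058 on the opposite strand.

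All 4 Fgf receptors were detected in the foregut: Fgfr2 in 69 of 82 cells, Fgfr1 in 68, Fgfr3 in 59 and Fgfr4 in 26. Their mean reads per kilobase were 26.3 for Fgfr2, 21.2 for Fgfr3, 16 for Fgfr1 and 9.86 for Fgfr4. In the 27 ventral bud cells Fgfr2 was detected in 16, Fgfr1 in 8, Fgfr4 in 6 and Fgfr3 in 2, and Fgfr2 (19.5 reads per kilobase) stood above the next, Fgfr4 (6.17). In Epcam-positive cells the levels were closer: on plate 2A Fgfr4 stood at 14, Fgfr3 at 12.6, Fgfr2 at 9.90 and Fgfr1 at 6.07 reads per kilobase, with Fgfr2 in 19 of 41 cells, Fgfr1 in 15, Fgfr4 in 13 and Fgfr3 in 9. Fgfr4, the receptor that pairs with β-Klotho (Klb) for endocrine Fgfs, differed in the same direction in every split plate. It was detected in 0 of 13 and 0 of 7 Epcam-negative against 8 of 25 and 13 of 41 Epcam-positive dorsal cells on plates 2B and 2A. In the liver it was detected in 0 of 32 Afp-low against 9 of 46 Afp-high cells, and at E14.5 in 0 of 58 Col1a1-positive against 5 of 15 Col1a1-negative cells. No read of it was found in the Epcam-negative, Afp-low and Col1a1-positive cells, with limits of 23.1%, 42.9%, 9.38% and 5.17% of cells in the order given. Fgfr2 shares 314 exonic bases with Ctbp2 on the same strand and Fgfr3 998 with G630022F23Rik on the opposite strand.

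**Figure D3:**
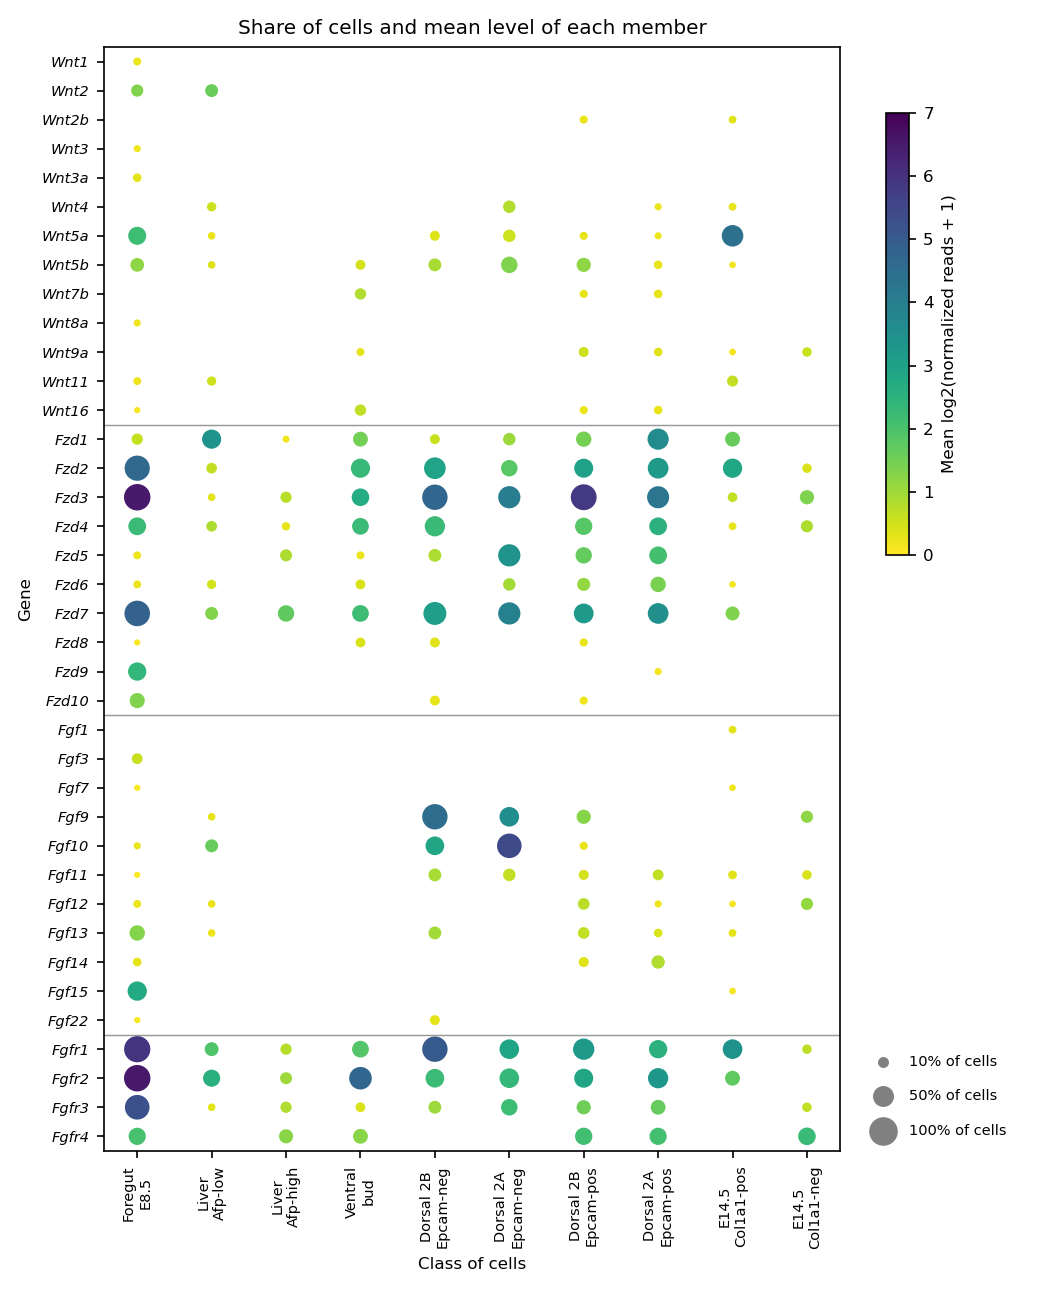
Share of cells with each gene (dot area) and mean log2(normalized reads + 1) (colour) for all 38 genes (vertical axis, grouped as Wnt ligands, Frizzled receptors, Fgfs and Fgf receptors) in the 10 classes (horizontal axis); no dot means that no cell reached 5 normalized reads. Fgfr1 and Fzd3 were detected in all 10 classes, Wnt5b in 8, Wnt5a in 7, Fgf9 and Fgf10 in 5 each, and the receptor genes Fzd8, Fzd10 and Fzd9 in 4, 3 and 2.

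Differences between classes were computed for 24 of the 38 genes, those detected in at least 10 cells of the table. The other 14 (Fgf1, Fgf3, Fgf7, Fgf22, Fzd8, Wnt1, Wnt2b, Wnt3, Wnt3a, Wnt4, Wnt7b, Wnt8a, Wnt9a and Wnt16) were too sparse. A gene is counted when its mean levels differ by at least 1, and where a comparison involves both dorsal plates, it must pass on each. Between Epcam-negative and Epcam-positive dorsal cells, 2 of the 24 were higher and 1 was lower, against 9.1% higher and 5.18% lower of all 13235 genes tested, so the count is near that of all genes. Fgf9 averaged 3.56 ± 3.35 (SD, 7 cells) in Epcam-negative cells and 0 in Epcam-positive cells on plate 2A, a difference of 3.56. On plate 2B it averaged 4.54 ± 2.91 (13 cells) and 1.27 ± 2.65 (25 cells), a difference of 3.26. Fgf10 differed by 5.45 (5.45 ± 3.92 and 0) on plate 2A and by 2.64 (2.89 ± 3.89 and 0.25 ± 1.23) on plate 2B. Fgfr4 was at 0 in Epcam-negative cells and at 2.08 ± 3.25 on plate 2A and 2.12 ± 3.28 on plate 2B in Epcam-positive cells. The SDs between cells, 2.91 to 3.92 in Epcam-negative cells for both ligands, were of the size of these differences. No Frizzled gene passed on both plates. On plate 2A alone 4 genes were higher and 4 lower, against 22.8% and 13.7% of all genes, and on plate 2B alone 3 were higher and 3 lower, against 19.8% and 14%. Fgf9, Fgf10 and Fgfr4 were in both sets.

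Some other genes of both pathways also differed on both dorsal plates. By the same rule 9.1% of all 13235 genes were higher and 5.18% lower. In lists of 7 to 14 genes, counts of 1 or 2 are not read as results about a list. Epcam-negative cells were higher for Wls, which carries Wnt proteins out of the cell (5.04 against 3.11 on plate 2A, 5.88 against 3.68 on plate 2B), and for Nkd1, a Wnt feedback gene (2.82 against 0.85, and 4.12 against 1.24). They were lower for Sfrp5, a secreted Wnt inhibitor of foregut endoderm, which was at 0 in Epcam-negative cells and at 5.37 and 5.09 in Epcam-positive cells. The list of Wnt secretion genes and enhancers had 2 higher (Wls and Znrf3) and 3 lower (Porcn, Lgr4 and Rnf43) of 7 tested. Wnt inhibitors had 1 higher (Sfrp1) and 1 lower (Sfrp5) of 9, Wnt targets 1 higher of 7 and Wnt co-receptors 0 of 7. Fgf co-receptors and binding proteins had 1 higher (Sdc1) and 2 lower of 14. The lower ones were Hs6st1 and Klb, the partner of Fgfr4, at 0 in Epcam-negative cells on both plates and at 1.07 and 1.09 in Epcam-positive cells. The list of Fgf targets and feedback genes, which also holds the receptor adaptors Frs2 and Frs3, had Il17rd and Frs2 higher and Spry2 lower of 13. Dusp6 and Etv5, both known Fgf targets, were detected on both sides: on plates 2B and 2A, Dusp6 in 11 of 13 and 6 of 7 Epcam-negative against 20 of 25 and 21 of 41 Epcam-positive cells, and Etv5 in 13 of 13 and 4 of 7 against 17 of 25 and 23 of 41.

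Both dorsal plates carry the same label but differed from each other. In Epcam-positive cells, 2 of 24 genes were higher on plate 2B and 1 lower, against 19.1% and 5.96% of all genes. Fgf9 stood at 1.27 on plate 2B and 0 on 2A, Fzd3 at 5.84 and 4.29, and Fzd1 at 1.45 and 3.66. In Epcam-negative cells 3 were higher (Fgfr1, Fzd2 and Fzd4) and 3 lower (Fgf10, Fgfr3 and Fzd5), against 24% and 14.2% of all genes. Fzd5 stood at 0.87 on plate 2B and 3.42 on plate 2A, and Fzd4 at 2.27 and 0.51. The difference between plates of one label was therefore at least 1 for 6 of 24 genes in the smallest classes.

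Within the Epcam-positive dorsal cells, receptor shares differed between cells with and without endocrine markers. Of 41 cells on plate 2A, 14 carried at least 3 endocrine markers, and on plate 2B 9 of 25 did. Fzd7 was detected in 0 of 14 and 0 of 9 of these cells on plates 2A and 2B, against 20 of 27 and 11 of 16 of the others. Fzd5 was likewise detected in 0 of 14 and 0 of 9, against 14 of 27 and 7 of 16. Fzd3 ran through both kinds of cells, with 9 of 14 and 6 of 9 endocrine-marked cells, against 14 of 27 and 14 of 16 others. Fgfr2 was detected in 4 of 14 and 0 of 9 endocrine-marked cells, against 15 of 27 and 10 of 16 others. Any Frizzled gene was detected in 10 of 14 and 7 of 9, against 27 of 27 and 15 of 16, and any Fgf receptor in 8 of 14 and 2 of 9, against 22 of 27 and 16 of 16. The subsets were drawn after the values were seen, and depth within them was not compared.

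In the liver, 5 of the 24 genes were higher in Afp-low than in Afp-high cells and 1 was lower, against 5.66% higher and 25.1% lower of all genes. The share of higher genes was thus above that of all genes, but Fgf10 and Wnt2 each rest on 5 of 32 Afp-low cells. The median difference was 0.23 over the 24 genes and -0.19 over all genes. A gene with a mean below 1 in Afp-high cells, such as Fzd1, Fzd3, Fzd4 or Fgfr1, cannot be lower by 1. The lower counts and the medians therefore cannot set the 24 genes apart from all genes. Fzd1 had the largest difference, 3.28, with 3.45 ± 4.15 in 32 Afp-low cells and 0.16 ± 1.11 in 46 Afp-high cells. Fgf10 averaged 1.64 ± 3.88 and Wnt2 1.59 ± 3.77 in Afp-low cells, and both were at 0 in Afp-high cells. Fgfr2 averaged 2.57 ± 3.96 and 1.01 ± 2.68, and Fgfr1 1.93 ± 3.78 and 0.77 ± 2.21. Fgfr4 was the lower gene, at 0 in Afp-low and 1.23 ± 2.49 in Afp-high cells. The ligands stood in different Afp-low cells: Fgf10 in 5 of 15 cells with mesenchyme markers, Wnt2 in 5 of 12 with heart muscle markers. The subsets overlap, since 5 Afp-low cells carried at least 3 markers of both lists. Fgf10 was also detected in 1 of the 12 cells with heart muscle markers, and Wnt2 in 0 of the 15 with mesenchyme markers. Without the 15 cells that carried heart muscle or endothelium markers, Wnt2 was at 0 on both sides. Afp-low cells were also higher for Wls (3.19 against 0) and for the Wnt inhibitor Sfrp1 (4.11 against 0), and lower for Lgr5, a receptor that amplifies Wnt signals (0.10 against 5.28), and Znrf3, which removes Frizzled proteins from the surface (4.54 against 9.36). Klb, at 0 in Afp-low and 2.86 in Afp-high cells, was detected in 15 of 46 Afp-high cells, 2 of which also had Fgfr4. Of 13 Fgf targets and feedback genes, 0 were higher and 5 were lower in Afp-low cells, among them Etv5 (0 against 1.37).

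At E14.5, 6 of the 24 genes were higher in Col1a1-positive than in Col1a1-negative cells and 3 were lower, against 12.9% and 20.2% of all genes. Wnt5a differed most, with 4.42 ± 4.14 in 58 Col1a1-positive cells and 0.08 ± 0.31 in 15 Col1a1-negative cells, a difference of 4.34. Of the Frizzled genes, Fzd2 averaged 2.84 ± 3.50 and 0.41 ± 1.58, Fzd1 1.62 ± 3.21 and 0.11 ± 0.43, and Fzd7 1.35 ± 3.05 and 0. Of the receptors for Fgf, Fgfr1 averaged 3.42 ± 4.12 and 0.68 ± 2.11 and Fgfr2 1.71 ± 3.36 and 0.13 ± 0.49. Fgfr4 was at 0 in Col1a1-positive and at 2.26 ± 3.52 in Col1a1-negative cells, Fgf9 at 0 and 1.20 ± 3.17, and Fgf12 at 0.13 ± 0.73 and 1.14 ± 3.00. The cells with Fgf9 and Fgf12 numbered 2 each of 15, so each of these differences rests on 2 cells. Fgfr4 was detected in 3 of the 11 Col1a1-negative cells with at least 3 endocrine markers, against 2 of the other 4. Col1a1-positive cells were higher for Wls (6.20 against 0) and for 4 of 9 Wnt inhibitors, with Sfrp1 at 8.47 against 0.53, and for 4 of 7 Wnt co-receptors, with Ptk7 at 7.16 against 3.33. Each of these lists also had 1 lower gene, the inhibitor list Tpbg (0.50 against 1.61) and the co-receptor list Lrp5 (0.40 against 1.46). On the list of 13 Fgf targets and feedback genes 3 were higher and 3 lower, with Spry1 at 1.92 against 0.56 and the adaptor Frs2 at 0.72 against 3.08. Of 7 Wnt targets 3 were higher, with Nkd1 at 3.88 against 0.58. Of 14 Fgf co-receptors and binding proteins 7 were higher, with Gpc3, a heparan sulphate proteoglycan, at 11.77 against 4.65.

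**Figure D4:**
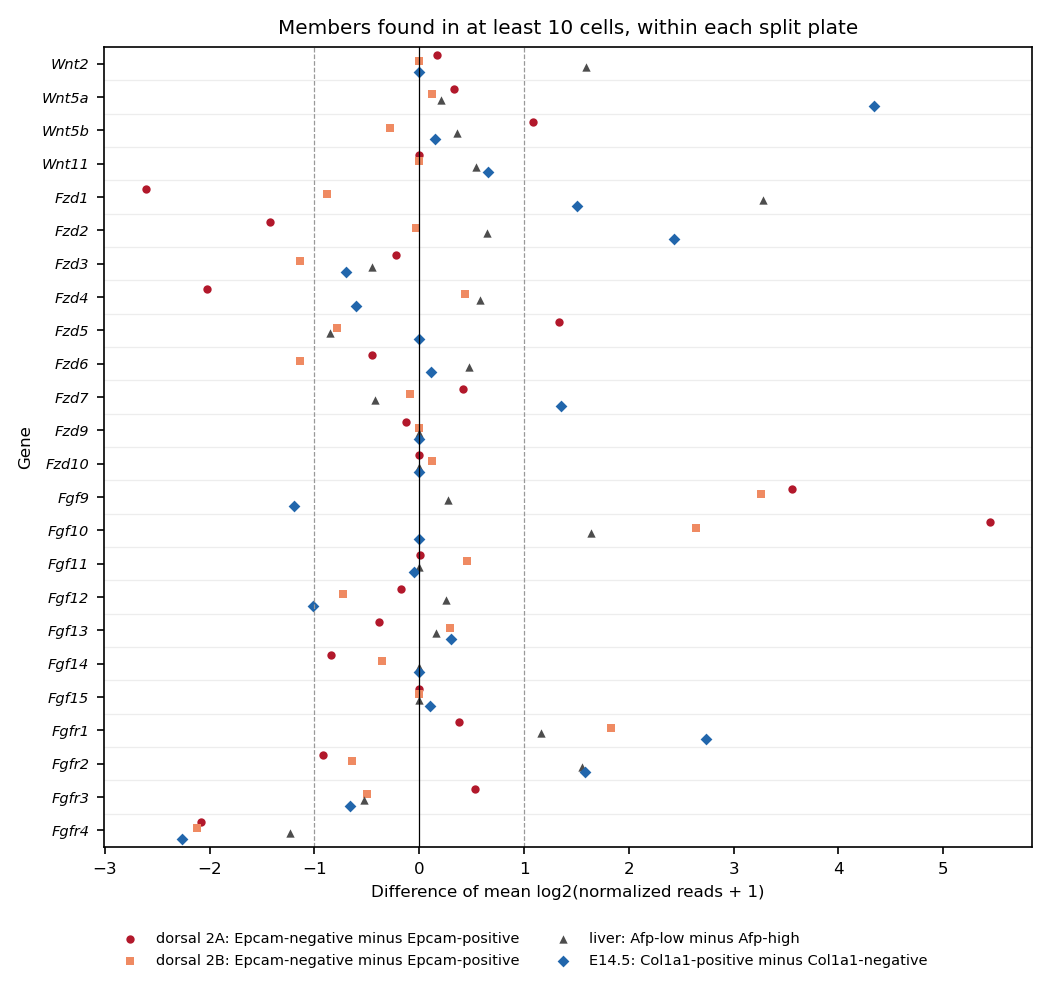
Difference of mean log2(normalized reads + 1) between the classes within each split plate (horizontal axis) for the 24 genes detected in at least 10 cells (vertical axis); dashed lines mark a difference of 1 in either direction. Fgf9 and Fgf10 lie to the right on both dorsal plates, Wnt5a at 4.34 for E14.5, Fzd1 at 3.28 for the liver, and Fgfr4 to the left in all 4 splits.

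Ventral bud cells were set against Epcam-positive dorsal cells of the same stage. At least 3 hepatoblast markers were carried by 21 of 27 ventral cells, against 2 of 41 dorsal cells on plate 2A and 5 of 25 on plate 2B. The part of this gap in the results was not tested. Of the 24 genes, 1 was higher and 4 were lower, against 1.68% and 15.5% of all genes. Fgfr2 was the higher gene, at 4.73 ± 3.80 in 27 ventral cells, against 3.27 ± 3.72 on plate 2A and 2.87 ± 3.64 on plate 2B. At least 3 endocrine markers were carried by 1 of 27 ventral cells, against 14 of 41 and 9 of 25 dorsal cells. On both dorsal plates Fgfr2 was detected in a smaller share of endocrine-marked cells than of the others, as given above. The part of these cells in the difference was not tested. The lower genes were Fgfr3 (0.41, against 1.66 and 1.53), Fzd3 (2.68, against 4.29 and 5.84), Fzd5 (0.23, against 2.09 and 1.65) and Fzd7 (2.17, against 3.53 and 3.20). All genes together were lower in ventral cells, with median differences of -0.28 against plate 2A and -0.55 against plate 2B, and with a pseudocount of 10 none of these 5 passed. Secreted Fgfs were detected in 0 of 27 ventral cells (a limit of 11.1%), against 0 of 41 and 5 of 25 dorsal cells. Fgf targets had 3 lower of 13: Etv1 (0.09, against 2.19 and 2.82), Dusp6 (2.46, against 3.86 and 6.16) and Etv5 (2.65, against 3.89 and 5.33). Axin2, a target of β-catenin signalling, was also lower (0.33, against 1.85 and 1.81), and Ccnd1 was higher (6.58, against 2.91 and 4.51).

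Ventral bud at E10.5 against foregut at E8.5 gave 0 higher and 12 lower of the 24 genes, against 3.61% and 40.5% of all genes, with a median difference of -0.68 over all genes. Stage and plate cannot be told apart here, and most foregut cells carried neural tube markers. Fgfr3 was at 0.41 ± 1.57 in ventral and 5.30 ± 3.42 in foregut cells, Fgfr1 at 1.88 ± 3.12 and 5.93 ± 2.87, and Fzd3 at 2.68 ± 3.85 and 6.53 ± 3.20. Fgf15, Fzd9, Fzd10, Wnt2 and Wnt5a were at 0 in ventral cells. Set against the 12 foregut cells with at least 3 epithelial markers, the differences of Fgf15, Fzd9 and Fzd10 were 0, since none of these 12 cells had a read of them. Fgfr1 was detected in 11 of these 12 cells, Fgfr2 in 9, Fgfr3 in 7, Fzd7 in 10, Fzd2 and Fzd3 in 8 each and Fzd4 in 7, and a Wnt ligand was detected in 10 of the 12, most often Wnt5b in 5. Of the 12 cells, 3 also carried at least 3 heart muscle markers, and 3 had Wnt2. On the list of 13 Fgf targets and feedback genes, 3 were higher and 1 was lower, with a median difference of -0.08. Spry2 stood at 3.76 in ventral against 0.98 in foregut cells, Etv5 at 2.65 against 0.77 and Dusp6 at 2.46 against 1.04. The adaptor Frs2 was the lower gene.

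Afp-high liver cells against ventral bud cells gave 0 higher and 6 lower of the 24 genes, against 14.1% and 16.2% of all genes. The lower genes were Fgfr2 (1.01 ± 2.68 in liver and 4.73 ± 3.80 in ventral cells), Fgfr1 (0.77 and 1.88), Fzd1 (0.16 and 1.49), Fzd2 (0 and 2.28), Fzd3 (0.76 and 2.68) and Fzd4 (0.28 and 2.25). Fgfr4 (1.23 and 1.24) and Fzd7 (1.71 and 2.17) differed by less than 1. Depth ran the other way, with a median of 2657340 reads per cell in Afp-high liver cells and 851654 in ventral cells, but median genes were 3102.5 and 3695. Lgr5 (5.28 and 0.58) and Znrf3 (9.36 and 3.72) were higher in Afp-high cells, while Wls was at 0 in Afp-high and 3.30 in ventral cells.

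Col1a1-positive cells at E14.5 were set against Epcam-negative dorsal cells at E10.5. At least 3 mesenchyme markers were carried by 58 of 58 of the E14.5 cells, against 6 of 7 on plate 2A and 7 of 13 on plate 2B, and the median summed level of the 10 markers was 62.8, against 22.7 and 18.4. The part of this gap in the results was not tested. Here 1 of the 24 genes was higher and 5 were lower on both plates, against 3.11% and 29.9% of all genes, whose median differences were -0.65 against plate 2A and -0.80 against plate 2B. Wnt5a was higher, at 4.42 at E14.5, against 0.54 on plate 2A and 0.37 on plate 2B. Fgf9 and Fgf10 were at 0 in all 58 E14.5 cells, a limit of 5.17% of cells, against 3.56 and 4.54 for Fgf9 and 5.45 and 2.89 for Fgf10. Fgfr3 was at 0 against 2.19 and 1.04, Fzd3 at 0.65 against 4.06 and 4.71, and Fzd7 at 1.35 against 3.94 and 3.11. Stage and plate cannot be told apart, and median genes were 2748.5 at E14.5 against 4896 and 5561. On the list of 13 Fgf targets and feedback genes, 8 were lower, the adaptor Frs2 among them, and 1, Spry2, was higher. Dusp6 stood at 0.91 against 7.54 and 6.93, Etv5 at 0.38 against 4.15 and 7.10, and Il17rd at 0.15 against 4.86 and 3.90. Of 9 Wnt inhibitors 2 were higher, with Sfrp1 at 8.47 against 2.42 and 4.54, and of 7 Wnt targets none passed in either direction.

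Counts of cells with both a ligand and a receptor depend on the receptor shares, which are given beside them. An Fgf receptor was detected in all 82 foregut cells, so all 38 with a secreted Fgf had one. In Epcam-negative cells on plates 2B and 2A, 10 of 11 and 5 of 5 cells with a secreted Fgf had an Fgf receptor. Over all Epcam-negative cells the receptor shares were 12 of 13 and 5 of 7. Fgf9 and Fgfr1 were found together in 8 of 13 Epcam-negative cells of plate 2B (10 had each gene) and in 2 of 7 on plate 2A (3 had each). Fgf10 and Fgfr2 were found together in 2 and 3 of these cells, against 5 with Fgf10 on each plate and 5 and 3 with Fgfr2. A Wnt ligand and a Frizzled gene were found together in 50 of 51 foregut cells with a ligand, where 81 of 82 had a Frizzled gene. They were found together in 22 of 35 Col1a1-positive cells with a ligand at E14.5, where 35 of 58 had a Frizzled gene. Of 31 Col1a1-positive cells with Wnt5a, 20 also had Wls, against 28 of 29 in the foregut. Over all cells of these classes, Wls was detected in 40 of 58 and 74 of 82. Wnt5a was found with Ror2, its co-receptor, in 8 of these 31 cells and in 18 of 29 foregut cells. Ror2 was detected in 12 of 58 and 44 of 82 cells. The counts describe messages in single cells and carry no measure of protein or of contact between cells.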

How the data were processed

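Smart-seq2 libraries of single sorted cells (Nextera XT, per the labels' protocols) were measured, 1 cell per sample. The submitters' processing notes name the build GRCm38 and the tools STAR 2.5.3, Cuffdiff 2.2.1 and Cufflinks. The counting program, annotation, scaling and cell filters were not given in the sources used here. Deposited by the authors was 1 table of log2 values with empty entries, 76.7% of all, which were set to 0. The unit was read from the values: 1647510 of 1647530 turn into whole reads (within 0.01) after the log2 is undone, 1 is subtracted and 1 factor per cell is applied, so they are log2(reads / size factor + 1). Lowest and highest reads per cell were 510222 and 3431728, recovered from the values.

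Cells were grouped by plate, as labelled, and split by Epcam, Afp or Col1a1. Cells of a plate are not replicates, so differences of mean log2 were computed with no test. A gene counted at a difference of at least 1 among 13235 genes detected (5 or more normalized reads) in at least 10 cells. Values in every class are given for genes found in at least 10% of cells of 1 class that differ by at least 1, or in at least 20% of cells of a class, and the other genes get counts. Up to 4 genes with the largest differences are named per pathway list. The genes, lists, markers and splits were chosen with earlier results of these data known. Genes named as carried by cells with a ligand, and the marker subsets, were chosen after their values were seen. No doublet caller was run. The steps were tested on simulated data drawn from Epcam-positive cells of plate 2A.

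Gene positions and exon lengths are from GENCODE M21 (GRCm38), and promoters from RefSeq (GRCm38.p6), which held 28 of the 38 genes. Alternatives were pseudocounts of 0.1 and 10, no filter, other scalings, thinning to 500000 reads (seed 1), cells with at least 2000 genes, other split thresholds, each dorsal plate alone and other detection limits. Subsets by cell markers were added after seeing the data. Tools were python 3.11.15, numpy 2.4.6, pandas 2.3.3, scipy 1.17.1 and matplotlib 3.10.9.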

Additional observations from a re-analysis of the deposited data

Results flagged for a closer look

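Fgf9 ran in opposite directions in the dorsal plates split by Epcam and the E14.5 plate split by Col1a1. The classes are not alike: at least 3 mesenchyme markers were carried by 6 of 7 and 7 of 13 Epcam-negative cells on plates 2A and 2B, against 58 of 58 Col1a1-positive cells. Fgf9 was higher in Epcam-negative than in Epcam-positive dorsal cells at E10.5, by 3.56 on plate 2A and 3.26 on plate 2B. Its difference between Col1a1-positive and Col1a1-negative cells at E14.5 was -1.2. The contrast between these directions was not tested, since each plate is 1 sample, and the E14.5 value rests on 2 of 15 Col1a1-negative cells, at levels of 8.24 and 9.71.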

How the results depend on the processing

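Of 91 recomputed counts of genes that differ by at least 1, 80 stayed within 1.5 times the count reported and 11 moved. With a pseudocount of 0.1 the counts were 8 for ventral against dorsal bud, 10 for E14.5 Col1a1-positive against E10.5 Epcam-negative cells, 5 for plate 2B against 2A in Epcam-positive and 11 in Epcam-negative cells. With a pseudocount of 10 they were 4 for the E14.5 split, 3 for the liver split, 0 for ventral against dorsal bud, and 1 and 3 for plate 2B against 2A in Epcam-positive and Epcam-negative cells. Plate 2A alone gave 8 and plate 2B alone 6 for the dorsal Epcam split. With cells left out by markers, a choice made after seeing the data, the counts were 3 for the dorsal split, 7 for the liver, 9 for E14.5 and 10 for ventral bud against foregut. Of 691 single differences, 686 kept their direction and moved by less than 1 SD between cells. This is a wide limit, since that SD often exceeded the difference itself. Splits at 3 for Epcam and at 8 for Afp or Col1a1 fell in the gaps and gave the same classes. Those settings could not move a count, difference or share, so the tallies do not measure how stable the results are. Fzd2 in Epcam-negative cells of plate 2B minus plate 2A turned to -0.026 with higher split thresholds. The differences of Wnt2 (liver, without cells with heart muscle or endothelium markers) and of Fgf15, Fzd9 and Fzd10 (ventral against 12 foregut cells with epithelial markers) became 0. Of 240 shares, 238 moved by less than their interval. Counting any read, the share with a Frizzled gene in Epcam-negative cells of plate 2A and with an Fgf receptor in those of plate 2B was 100%. Median-of-ratios scaling moved the median difference of all genes from -0.10 to -0.23 for Afp-high liver against ventral bud, from -0.42 to -0.55 for ventral against dorsal bud and from -0.76 to -0.93 for E14.5 against E10.5, the last 2 as means over both plates. No paired analysis was possible because the labels number no replicates and each sample is 1 cell. The small classes (7, 13 and 15 cells) and the low number of genes per Afp-low and Col1a1-positive cell limit what a share of 0 can show.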
